A study of Mus musculus with 33 samples.

Results

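Dusp6 and 9 genes of the same signalling circuit were followed in lymphoid organs of mice given nicotinamide (NAM, a form of vitamin B3). The 10 members are Dusp6, Dusp1 and Spry2, which feed back on the kinase ERK, the AP-1 genes Fos, Fosb, Jun and Junb, and the immediate early genes Egr1, Nr4a1 and Ier2. Dusp6 was chosen from measured values, because its row had place 1 of 18243 by p in the comparison of 14 days of NAM with untreated among libraries labelled spleen. The other 9 were added by name around it. Each symbol matched 1 of the 56414 rows of the deposited table, and all 10 passed the filter on low values under both labels.

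The data are polyA RNA-seq of spleens and lymph nodes of tumour-free C57Bl/6 mice. Treated mice drank water with 0.5% NAM for 1, 3 or 14 days, and untreated mice did not receive it. The libraries labelled spleen number 20, with 5 in each of the 4 groups. Those labelled lymph node number 13, in groups of 3 (untreated), 2 (1 day), 4 (3 days) and 4 (14 days). Replicates are separate libraries of 1 group, the labels do not say whether any mouse gave both organs, and p-values measure the spread between these libraries. A library labelled spleen held between 18325061 and 54830743 whole reads, and one labelled lymph node between 30424968 and 46733974. Under the spleen label the 3 day libraries held 43632016 to 54830743, above all untreated (18325061 to 31486631) and all 1 day ones (21848473 to 32066627). Those at 14 days held 19880930 to 48338251. Treatment time and depth thus go together where 3 days is compared with untreated or 1 day, and the part of depth was not tested. The lowest member, Fosb, had 32 to 218 reads per library, and each of the others had at least 155.

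The tissue labels went against their defining transcripts. Glycam1, which lymph node venules express, had 108200 to 214200 normalised counts in libraries labelled spleen and 1.585 to 12.38 in libraries labelled lymph node. Spic, the transcription factor of splenic red pulp macrophages, had 774.3 to 1295 and 6117 to 10490. The order was opposite to the label in 33 of 33 libraries, so tissues are named here only as the labels name them. Libraries of the 2 labels were scaled separately, and every test was made within a label.

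Growth factor, antigen receptor and stress signals reach ERK through a chain of kinases. Active ERK switches on immediate early genes within minutes, without new protein synthesis, and their products include the AP-1 proteins of the Fos and Jun families, the zinc finger factor Egr1 and the orphan nuclear receptor Nr4a1. ERK also switches on its own inhibitors, the phosphatases of the Dusp family and the Sprouty proteins. In lymphocytes Egr1 and Nr4a1 are widely used as readouts of antigen receptor signalling, and the mechanical and thermal stress of tissue handling can induce Fos and Jun. A bulk library does not separate these sources, and fewer cells of a type and less RNA per cell cannot be told apart in it.

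RefSeq promoters were at hand for 8 of the 10 members, all but Egr1 and Ier2. The 250 bases before the start (build GRCm38.p6) were searched on both strands for the cAMP response element TGACGTCA, the AP-1 site TGANTCA, the EGR site GCGNGGGCG and the CArG box bound by serum response factor. The promoters of Dusp1, Fosb and Nr4a1 are shown because these members passed the test in a comparison described below, with matches in capitals and the strand of the gene read 5′ to 3′. They lie at chr17:26508473-26508722 on the minus strand, chr7:19310046-19310295 on the minus strand and chr15:101266596-101266845 on the plus strand.
Dusp1: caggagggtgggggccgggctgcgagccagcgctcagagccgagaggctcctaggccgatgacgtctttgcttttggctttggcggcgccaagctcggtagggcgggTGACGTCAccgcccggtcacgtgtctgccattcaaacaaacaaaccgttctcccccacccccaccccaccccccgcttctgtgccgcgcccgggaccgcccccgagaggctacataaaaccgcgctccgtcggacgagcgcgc
Fosb: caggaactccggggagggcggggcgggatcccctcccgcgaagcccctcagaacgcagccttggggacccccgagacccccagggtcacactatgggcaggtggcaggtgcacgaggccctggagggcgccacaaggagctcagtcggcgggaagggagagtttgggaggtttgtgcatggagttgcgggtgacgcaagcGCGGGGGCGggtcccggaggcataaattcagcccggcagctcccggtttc
Nr4a1: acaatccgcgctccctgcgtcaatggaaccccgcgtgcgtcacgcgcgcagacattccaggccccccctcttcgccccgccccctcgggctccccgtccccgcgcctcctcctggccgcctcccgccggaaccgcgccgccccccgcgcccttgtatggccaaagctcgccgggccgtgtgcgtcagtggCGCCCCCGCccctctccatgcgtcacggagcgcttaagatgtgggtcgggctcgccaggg
The capitals of Dusp1 mark the cAMP response element at positions -143 to -136, where -1 is the base before the start. Those of Fosb, at -50 to -42, and of Nr4a1, at -60 to -52 on the other strand, mark the EGR site. Of 32851 promoters of the same length, 1.55% held the cAMP response element, 4.7% the EGR site, 6.75% the AP-1 site and 1.47% the CArG box. The last 2 motifs had 0 matches in the 8 promoters, which says only that these letters are not in this window.

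Dusp6 encodes the cytoplasmic phosphatase that removes phosphate from ERK. Its row lies on chromosome 10 from 99263228 to 99267488 (mm10). In untreated libraries labelled spleen its normalised count was 1375, 1271, 1398, 1264 and 1483. At 14 days of NAM it was 1108, 895, 1004, 990.9 and 1049. All 5 treated libraries lay below all 5 untreated ones, a separation that choosing the row by its p in this contrast favours. It held for 0.263% of the 18243 rows, and because of that choice nothing is read from this share for Dusp6. The means were 1358 ± 92.15 and 1009 ± 78.59 (SD, n = 5 each), a log2 difference of -0.43, and since this contrast chose the gene the values are a description without a test.

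The lower level was also seen at the shorter times. Dusp6 was 1059, 994.2, 1102, 1036 and 1156 at 1 day and 876.2, 970.2, 911.8, 1130 and 1036 at 3 days. No treated library of the 15 under this label reached the lowest untreated value. The log2 differences from untreated were -0.34 at 1 day and -0.47 at 3 days, which rest on the same untreated libraries and are therefore also descriptions. The 1 and 3 day groups, which took no part in the choice, overlapped and differed by a log2 value of -0.12. The fit over all 4 groups takes its spread in part from the libraries that chose Dusp6, so the test is given from these 2 groups alone (limma adjusted p = 0.882 by Benjamini-Hochberg). By mean level the order was untreated, 1 day, 14 days and 3 days, and the 3 treated neighbours overlapped each other.

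Libraries labelled lymph node took no part in the choice either. There Dusp6 was 1245, 1441 and 1406 in untreated libraries, and 1318 and 1331 at 1 day, inside the untreated range. It was 947.9, 990.6, 1034 and 1267 at 3 days, with 3 of 4 libraries below the untreated range. At 14 days the counts were 1202, 952.9, 921.7 and 1074, all below it. By limma with Benjamini-Hochberg adjustment over 18215 rows, the log2 difference of -0.37 at 3 days (SE 0.105, 95% confidence interval -0.592 to -0.148) had an unadjusted p of 0.00266 and an adjusted p of 0.107. That of -0.40 at 14 days (SE 0.105, -0.621 to -0.178) had an unadjusted p of 0.00145 and an adjusted p of 0.091. Neither passed the threshold of 0.05 with limma or with edgeR. DESeq2 on the recovered whole reads called both, where it called 508 rows in all at 3 days and 382 at 14 days, against 226 and 144 by limma. Of 10 alternative settings, 2 called Dusp6 at 3 days and 1 at 14 days.

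**Figure D1:**
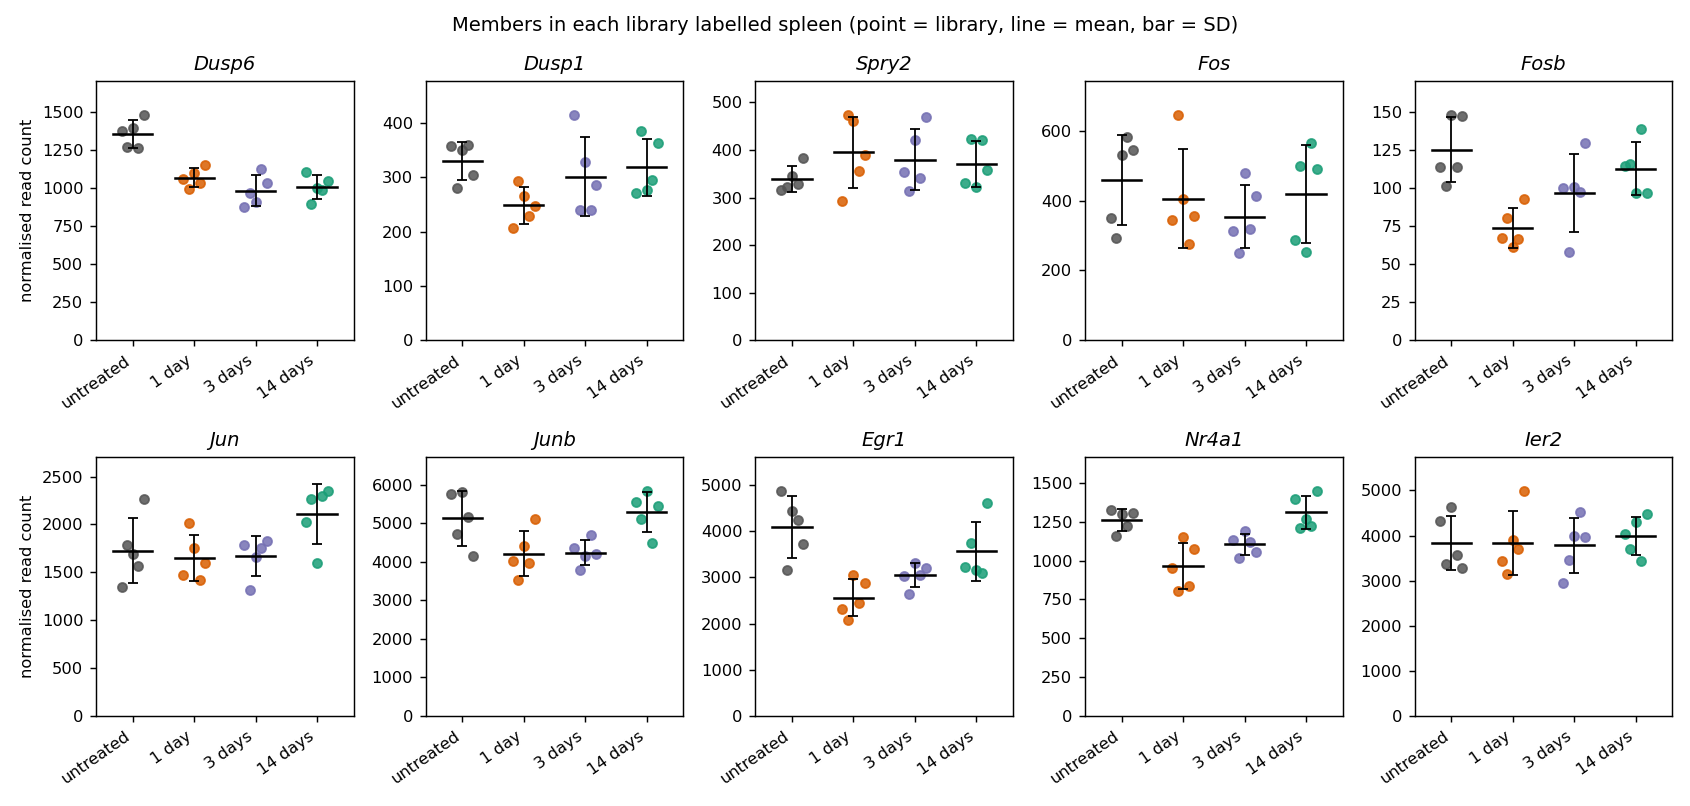
Normalised read count (linear axis from 0) of the 10 members in each of the 20 libraries labelled spleen, by NAM treatment time; points are libraries, lines means and bars SD. Dusp6 sits between 876.2 and 1156 in all 15 treated libraries and between 1264 and 1483 in the untreated ones, while Fosb, Egr1 and Nr4a1 are lowest by mean at 1 day.

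At 1 day under the spleen label, limma called 3 of the 9 members tested, Fosb, Egr1 and Nr4a1, and all 3 fell. Over all 18243 rows it called 16.6%, and 8.05% as lower. Of these 9 members 8 had a log2 difference below 0, as did 49.3% of all rows. Groups did not overlap, with all 1 day libraries below all untreated ones, for 3 of the 9 (Fosb, Egr1 and Nr4a1) and for 5.47% of all rows. Dusp6 is left out of these counts because it was chosen against the same untreated libraries.

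Egr1 encodes the zinc finger factor that binds GC-rich promoters within the first hour of a stimulus. Its row, on chromosome 18 from 34859823 to 34864981, had normalised counts of 4879, 3165, 4437, 4242 and 3721 in untreated libraries. At 1 day it had 2323, 2083, 3046, 2440 and 2883. The highest treated library stayed below the lowest untreated one, and the means were 4089 ± 663.1 and 2555 ± 399.3 (SD, n = 5 each). The log2 difference was -0.68 (SE 0.127, limma adjusted p = 0.00188 by Benjamini-Hochberg).

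Fosb encodes an AP-1 partner of the Jun proteins. On chromosome 7 from 19302696 to 19310045, it had 114.3, 101.6, 148.3, 114.3 and 147.6 normalised counts in untreated libraries and 67.37, 80.53, 61.45, 66.66 and 93.12 at 1 day. The groups did not overlap. The log2 difference was -0.75 (SE 0.184, limma adjusted p = 0.00943 by Benjamini-Hochberg), the largest fall among the members, on the fewest reads.

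Nr4a1, on chromosome 15 from 101266846 to 101274795, encodes the orphan receptor Nur77. Its untreated counts were 1325, 1156, 1298, 1220 and 1306, and its counts at 1 day were 954.8, 804.3, 1149, 836.1 and 1074. The highest 1 day library was just under the lowest untreated one. The log2 difference was -0.40 (SE 0.0885, limma adjusted p = 0.00521 by Benjamini-Hochberg). Egr1, Fosb and Nr4a1 passed in 10 of 10 alternative settings of the adjusted test and in each of the 10 fits that left out 1 library of the comparison, and Nr4a1 did not reach a 1.5-fold change (ratio of means 0.764).

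Other AP-1 genes and feedback genes did not pass at 1 day. Junb, an AP-1 gene with a high level in lymphoid organs, had a mean of 5130 ± 708.1 in untreated and 4213 ± 588.8 at 1 day, with 3 of 5 treated libraries below the untreated range. Its limma adjusted p was 0.0649 by Benjamini-Hochberg. Dusp1, a nuclear phosphatase of p38, JNK and ERK, had means of 330.2 ± 35.59 and 248.3 ± 33.4, with 4 of 5 treated libraries below the untreated range and a limma adjusted p of 0.0583. Dusp1 passed in 3 of 10 alternative settings and Junb in 2 of 10. Fos, the partner of Jun in AP-1, spread from 292.7 to 581.6 in untreated libraries and from 275 to 645.3 at 1 day, and its log2 difference of -0.19 had a 95% confidence interval of -0.734 to 0.352. The intervals were narrower for Jun (-0.335 to 0.227) and for Ier2 (-0.277 to 0.266), a short gene of unsettled nuclear function. Spry2, the Sprouty inhibitor upstream of Raf, had a higher mean at 1 day, with an interval of -0.0742 to 0.475.

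At 3 days under the spleen label, limma with Benjamini-Hochberg adjustment called 0 of the 9 members tested, where it called 5.55% of all rows. That share moved with the setting, from 140 rows with the 2 groups alone to 4722 with library weights, against 1013 in the main fit. DESeq2 called 1 member, Egr1, and edgeR 0, where DESeq2 called 1723 rows in all and edgeR 1084. An unadjusted limma p under 0.05 was found for 4 of the 9 and for 22.0% of all rows. Egr1 was 3030, 2637, 3314, 3053 and 3211 at this time. Its log2 difference of -0.41 (SE 0.127) had a limma adjusted p of 0.0596, and 3 of 5 libraries lay below the untreated range. Fosb (log2 -0.39), Junb (-0.27) and Nr4a1 (-0.19) had limma adjusted p-values of 0.219, 0.131 and 0.205. Of the 9 members 8 had a log2 difference below 0, as did 49.9% of all rows. Treated libraries all lay below the untreated ones for 0 of the 9 and for 2.6% of all rows. They did for Dusp6, which rests on the untreated libraries that chose it, and nothing is read from it.

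The direct comparison of 3 with 1 day called 0 of the 9 members other than Dusp6 by limma, and 0 by edgeR and by DESeq2, where limma called 0.00548% of all rows. Nr4a1 was the 1 of them with an unadjusted limma p under 0.05 (0.0302, adjusted p 0.658), as 6.98% of all rows had. Its log2 difference was 0.21 in favour of 3 days, with 1 of 5 libraries at 3 days above all of those at 1 day. Fosb (0.36, interval -0.0215 to 0.748) and Egr1 (0.26, interval -0.000395 to 0.529) had higher means at 3 days, and their intervals reached 0. A fall at 1 day and no call at 3 days therefore does not amount to a difference between these times in these data.

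At 14 days under the spleen label, where Dusp6 was chosen and no member was tested, the other 9 members had log2 differences between -0.20 (Egr1) and 0.29 (Jun). Egr1 was 3232, 3743, 3154, 3089 and 4618, and 2 of these libraries were below the untreated range. Jun, the AP-1 core subunit, had the highest difference, 2108 ± 312.3 against 1727 ± 342 (SD, n = 5 each) or a log2 value of 0.29. The other 7 lay between -0.16 (Fos) and 0.12 (Spry2). Nr4a1 had 1310 ± 108.2 and Fosb 112.8 ± 17.41, both inside or beside their untreated spread.

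**Figure D2:**
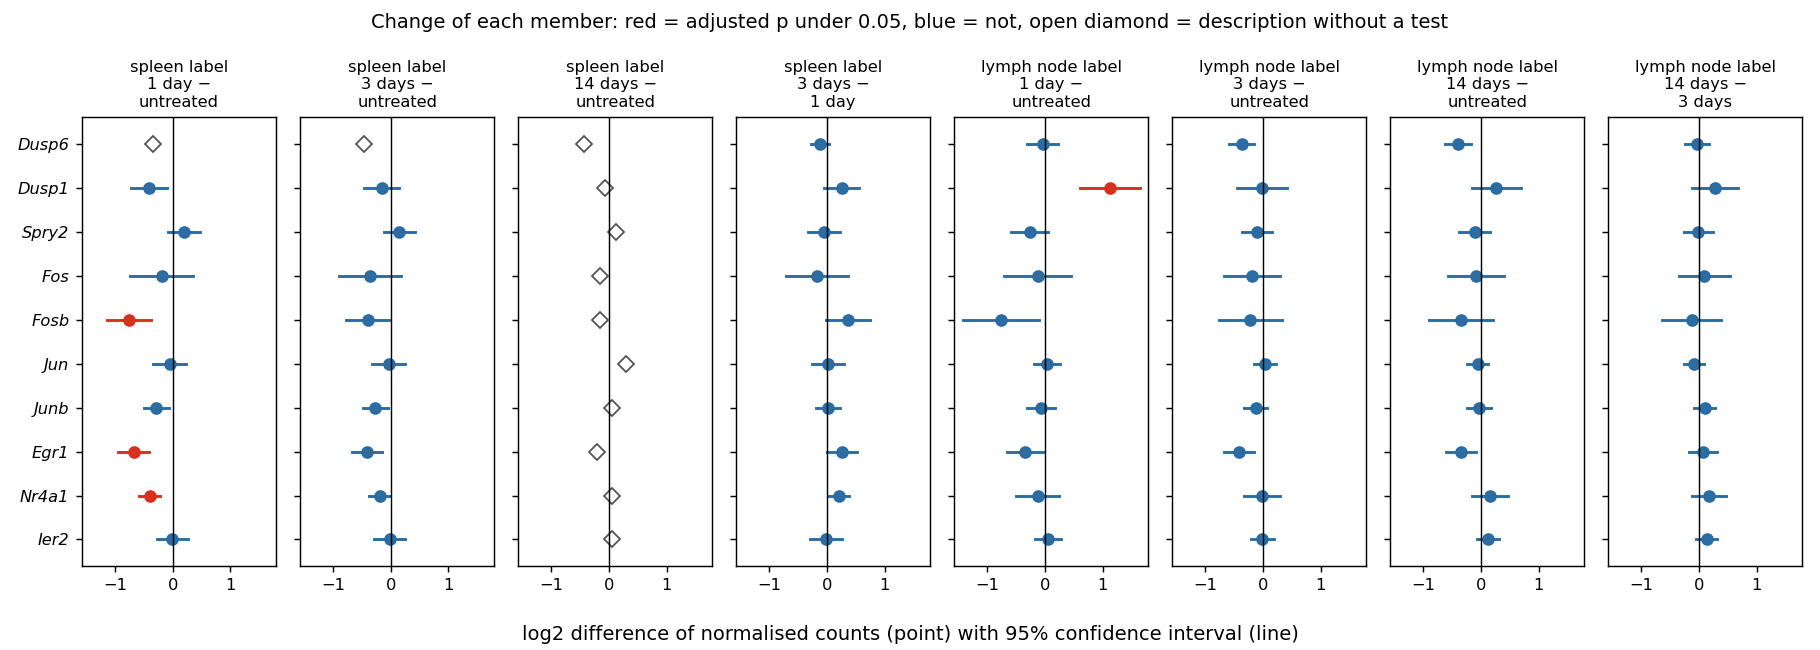
Log2 difference of normalised counts for each member (rows) in each of 8 comparisons (panels), with 95% confidence intervals from limma; red marks a Benjamini-Hochberg adjusted p under 0.05, blue marks none, and open diamonds are descriptions without a test. The interval of Dusp6 for 3 days against 1 day under the spleen label uses the spread of the libraries that chose it. Red points are Fosb (-0.75), Egr1 (-0.68) and Nr4a1 (-0.40) at 1 day under the spleen label and Dusp1 (1.13) at 1 day under the lymph node label.

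Under the lymph node label at 1 day, limma called 1 of 10 members, Dusp1, which rose. Over all 18215 rows limma called 1.21%, and 0.884% as higher. Dusp1, on chromosome 17 from 26505591 to 26508476, had normalised counts of 220.5, 225 and 457.5 in untreated libraries and 600.3 and 639 at 1 day. The third untreated library was well above the other pair, and both treated libraries were above it. The log2 difference was 1.13 (SE 0.242, 95% confidence interval 0.615 to 1.64, limma adjusted p = 0.0309 by Benjamini-Hochberg). At 3 days Dusp1 was 212.1, 327.2, 295.8 and 300.8 and at 14 days 328.9, 383.6, 312.2 and 340.3, all inside the untreated range or just under it.

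The call on Dusp1 rests on few libraries. Without either treated library or without untreated replicate 1 or 2, the limma adjusted p was 0.168, 0.177, 0.12 and 0.132 in that order, and without untreated replicate 3 it was 0.000437. The log2 difference stayed between 0.947 and 1.47 in these fits. Replicate 1 at 1 day also carried pancreas transcripts, with a summed level of 99270 normalised counts over 8 markers against 14.55 in replicate 2. Dusp1 was 600.3 in the first and 639 in the second, and the part of the pancreas transcripts was not tested.

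Of the other members at this time, Egr1 (1094 and 968) and Spry2 (220.8 and 236.1) had both treated libraries below the 3 untreated ones. With 2 against 3 libraries such a separation held for 15.5% of all rows downward and 17.1% upward, and neither passed (limma adjusted p 0.294 and 0.429). Fosb was 26.46 and 62.67 against 61.24, 72.78 and 76.24, a log2 value of -0.76 with a limma adjusted p of 0.259.

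At 3 days under the lymph node label limma called 0 of 10 members, where it called 1.24% of all rows. DESeq2 called 2 members and 508 rows, and edgeR 0 members and 206 rows. An unadjusted limma p under 0.05 was found for 2 members and 14.8% of all rows. Egr1 was 840.7, 1075, 879.3 and 1134, below all 3 untreated libraries (1167, 1429 and 1327). It was the 1 member so placed, as were 7.25% of all rows, and its log2 difference of -0.42 (SE 0.125) had a limma adjusted p of 0.126. At 14 days limma again called 0 of 10, where it called 0.791% of all rows. DESeq2 called 1 member and 382 rows, and edgeR 0 members and 160 rows. The unadjusted limma p was under 0.05 for 2 members and 11.8% of all rows. Dusp6 was the 1 member with all libraries below the untreated ones, which 6.02% of all rows shared. Egr1 had a log2 difference of -0.35 (limma adjusted p 0.258). Between 14 and 3 days limma, edgeR and DESeq2 each called 0 of 10 members, and limma called 0.011% of all rows. An unadjusted limma p under 0.05 was found for 0 members and 5.84% of all rows. The comparisons with untreated under 1 label share the untreated libraries.

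**Figure D3:**
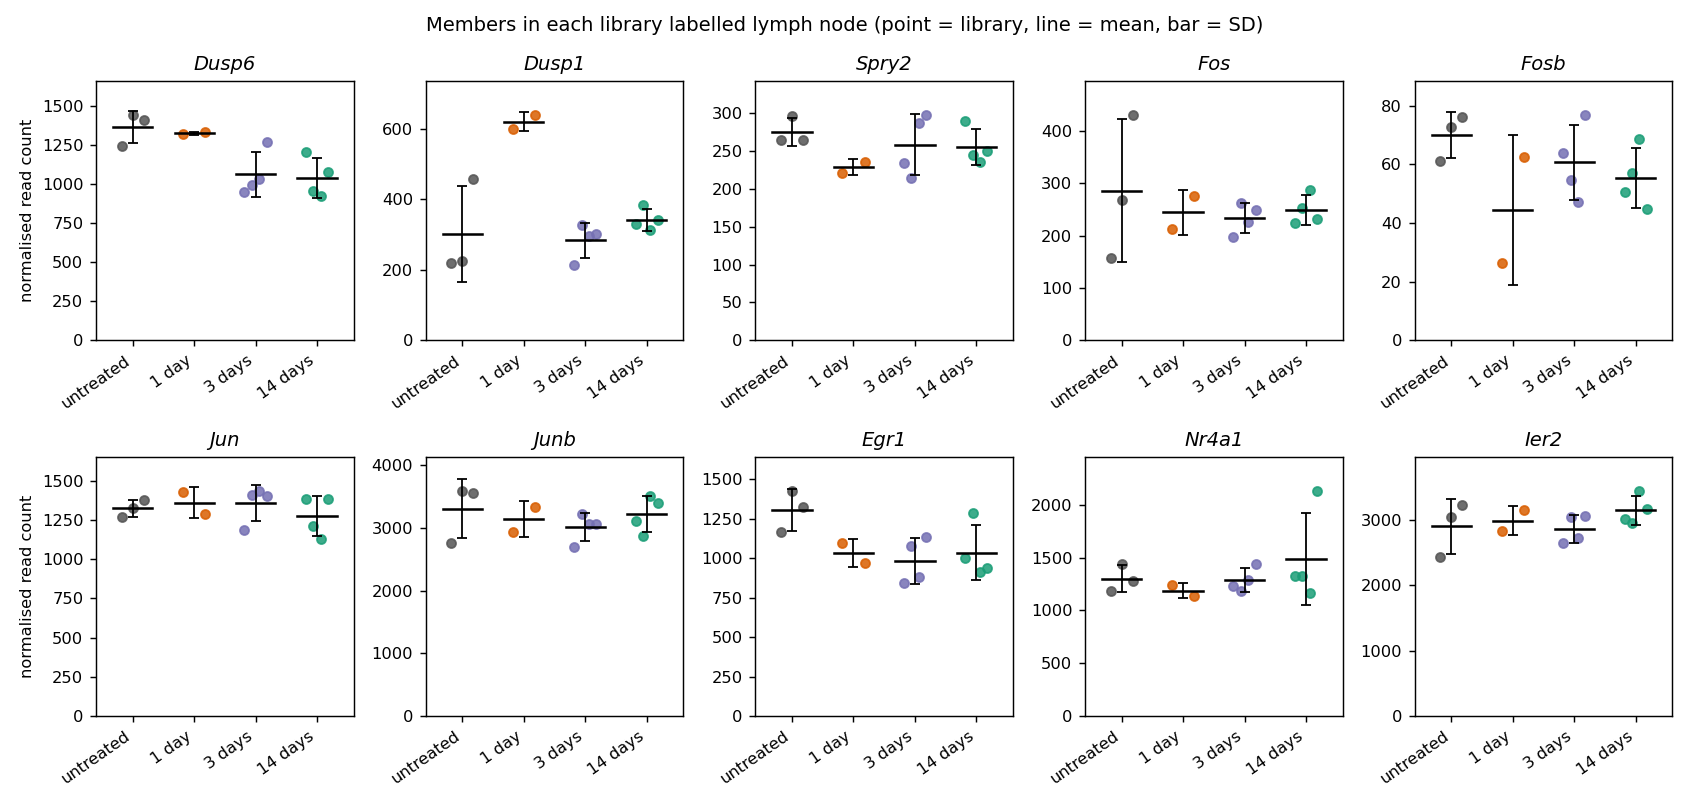
Normalised read count (linear axis from 0) of the 10 members in each of the 13 libraries labelled lymph node, by NAM treatment time; points are libraries, lines means and bars SD. Dusp1 is 600.3 and 639 at 1 day against 212.1 to 457.5 in the other libraries, and Dusp6 is lower by mean at 3 and 14 days than in untreated libraries.

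Other genes of the pathway were read from lists of names. Of 18 tested genes of ERK feedback and ERK targets, 3 fell and 0 rose at 1 day under the spleen label, where 16.6% of all rows were called and 8.05% were lower. Etv5, an ETS factor downstream of ERK, went from 345.4 ± 80.97 to 219.4 ± 36.62 (log2 -0.64, limma adjusted p 0.00844). Ccnd1, the cyclin D1 gene, went from 1320 ± 221.1 to 881.9 ± 129 (log2 -0.58, limma adjusted p 0.00204), and Plaur, the urokinase receptor gene, had a log2 value of -0.39. Ccnd1 (-0.63) and Plaur (-0.36) also fell at 3 days, as 2 of 18, where 5.55% of all rows were called. The list medians were -0.20 and -0.16, against medians near 0 over all rows.

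Among 30 further immediate early genes, 7 fell and 2 rose at 1 day under the spleen label, beside the 16.6% called and 8.05% lower over all rows. Klf2, the quiescence factor of lymphocytes, went from 7966 ± 1239 to 4239 ± 1328 (log2 -0.95, limma adjusted p 0.0018). Zfp36l1, which destabilises AU-rich mRNAs, went from 9602 ± 662.9 to 5952 ± 518.3 (log2 -0.69, limma adjusted p 0.00045). Srf, serum response factor itself, had a log2 value of -0.59, in a row that also holds Mir6976. At 3 days, beside 5.55% of all rows called, 3 fell and 1 rose: Klf2 (-0.75), Zfp36l1 (-0.61) and Myc (-0.44), the proliferation factor, were the largest changes.

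Genes of the kinase cascade gave 31 rows for 30 genes, of which 5 fell and 3 rose at 1 day and 4 fell and 1 rose at 3 days under the spleen label. The shares of all rows called at these times were 16.6% and 5.55%. The largest changes at both times were those of Elk4 (log2 -0.74 and -0.60) and Elk3 (-0.61 and -0.45), ETS partners of serum response factor, and of Ksr1 (-0.65 and -0.52), the scaffold of Raf and MEK. The 10 genes of glucocorticoid and heat shock responses had 2 higher, Hsph1 (0.55) and Dnajb1 (0.32), and 1 lower, Sgk1 (-0.35), at 1 day. Dnajb1, a heat shock co-chaperone, also rose at 3 days (0.30). None of these 4 lists was tested as a list, and single genes within them share the same libraries.

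Under the lymph node label genes of each of these lists also changed at 1 day. Errfi1, a feedback inhibitor of the EGF receptor on the ERK list, went from 986.4 ± 126.6 (n = 3) to 5030 ± 814.5 (n = 2), a log2 difference of 2.35 (limma adjusted p 1.53e-05). It was the 1 of 17 tested genes of its list that passed, beside 1.21% of all rows called and 0.884% higher. Tsc22d3, the glucocorticoid-induced leucine zipper gene, went from 12430 ± 3863 to 31500 ± 2288 (log2 1.38, limma adjusted p 0.000936). Klf9, also on the list of glucocorticoid and heat shock genes, had a log2 value of 0.91. These were 2 of 10 in their list, whose median was 0.53 against -0.00048 over all rows. Sik1 (0.74), a salt-inducible kinase, and Nfkbia (0.46), the NF-kB inhibitor, rose as 2 of 30 immediate early genes, and Braf (-0.87), the Raf kinase gene, was the 1 of 31 cascade rows that fell. Dusp1 rose in the same pair of libraries, of which replicate 1 carried the pancreas transcripts. Whether these changes share a cause was not tested.

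At 3 days under this label, where 1.24% of all rows were called, 1 of 17 ERK genes (Plaur, 0.32), 1 of 30 immediate early genes (Nfkbia, 0.29) and 1 of 10 glucocorticoid and heat shock genes (Dnajb1, 0.53) passed, all upward. At 14 days Errfi1 (0.75, limma adjusted p 0.0396) and Tsc22d3 (0.83, limma adjusted p 0.0153) were higher, 1 of 17 and 1 of 10 in their lists, where 0.791% of all rows were called.

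Markers of other cells were read beside these comparisons, against shares of all rows called of 16.6% at 1 day in libraries labelled spleen and, in those labelled lymph node, of 1.21% at 1 day, 1.24% at 3 days and 0.791% at 14 days. The summed level of 10 adipocyte markers was 27020 to 156800 in untreated libraries labelled spleen and 89040 to 371500 at 1 day, with 1 of 10 called higher and 10 of 10 above 0 (median log2 1.01). Of 9 rows for 8 B cell markers 3 were called lower at 1 day, with sums of 67200 to 86770 in untreated libraries and 53750 to 77230 at 1 day. At the same time 6 of 6 epithelial markers (median log2 0.88, sums of 3067 to 16180 against 1054 to 7497) and 6 of 6 tested erythroid markers (median log2 0.68, sums of 5955 to 25770 against 2878 to 12020) had differences above 0, with 0 called in each list. At 14 days under the spleen label, as a description, 10 of 10 adipocyte (median log2 0.454), 6 of 6 epithelial (0.4) and 6 of 6 tested erythroid markers (0.484) were above 0. Below 0 were 8 of 8 T cell, 11 of 12 stroma and endothelium, 5 of 8 myeloid and 3 of 9 B cell rows. At 3 days 11 of 12 stroma and endothelium, 6 of 8 T cell, 3 of 6 erythroid, 1 of 10 adipocyte and 0 of 6 epithelial markers were below 0. Under the lymph node label the sum of 12 erythroid markers was 1454000 to 3061000 in untreated libraries, 320900 to 1389000 at 3 days and 794200 to 1188000 at 14 days, with 9 and 2 of 12 called lower. Under the spleen label the erythroid gene Rhag was at 0 in 20 of 20 libraries. The myeloid sum was 192200 to 195600 in untreated libraries labelled lymph node, 234800 to 251700 at 1 day and 206500 to 238200 at 3 days. Lyz2 alone had 137800 to 200900 over the 13 libraries of this label and made up most of that sum. Of the 8 myeloid markers 2 had a difference below 0 at 1 day (median log2 0.287) and 4 at 3 days (median log2 0.0183), with 0 called at either time. At 1 day under this label the sum of 6 lymph node markers was 13020 to 14650 against 6457 to 8579 in untreated ones, with 1 of 5 tested called higher. At 3 days it was 8977 to 13410, with 0 called and 2 of 5 tested below 0, and Ccl21a (6181 to 14390 over all libraries of this label) made up most of it. The sum of 8 T cell markers at 1 day was 36110 to 38490 against 31190 to 33480. The sum of 6 spleen markers was 34900 to 53470 at 14 days against 59220 to 67920, with 1 of 6 called lower. The part of these cell types in the changes of the members was not tested.

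The 20 libraries labelled spleen also fell on 2 sides of a principal component, the second, with 13.6% of the variance. All 5 libraries at 1 day and 4 of 5 at 3 days lay above 0, and the rest below. The labels give no batch, so at 1 day the effects of treatment and of this split cannot be told apart for Egr1, Fosb, Nr4a1 or Dusp6. At 3 days only replicate 1 lay on the side of the untreated libraries, so the effects are nearly as hard to separate there, for members and listed genes. Without that library limma called 2782 rows at 3 days against untreated, and 1013 with it. Among the 13 libraries labelled lymph node the second component held 15.3% of the variance, with the 3 untreated and both 1 day libraries above 0 and all 8 at 3 and 14 days below. Treatment time and this split cannot be told apart there for Dusp6 or Egr1.

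Within groups the members differed in spread. Fos had a within-group SD of 0.451 on the log2 scale under the spleen label, where rows within 2-fold of its level had a median of 0.182. Jun (0.229 against 0.139), Ier2 (0.221 against 0.14) and Egr1 (0.215 against 0.139) were also above the rows of their level, and Fosb (0.292 against 0.303) was not. Under the lymph node label Fos (0.377 against 0.174), Dusp1 (0.332 against 0.153) and Nr4a1 (0.244 against 0.108) had values above those of rows of their level. Each of these rests in part on 1 library. With single libraries left out, a choice made after seeing the data, the SD was 0.242 for Fos without untreated replicate 1, 0.186 for Dusp1 without untreated replicate 3 and 0.12 for Nr4a1 without 14 day replicate 4. Fos was 158.2, 269.1 and 430.9 in the 3 untreated libraries alone.

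Deviations from group means were then correlated, to ask whether feedback genes and AP-1 genes vary together between libraries of 1 group. The pairs were those that include Fos or Dusp6, 17 per label, of which the 9 with Dusp6 under the spleen label hold libraries that chose it and are descriptions. Of the other 25 pairs, 3 passed a permutation test at an adjusted p of 0.05 by Pearson's r, and 4 by Spearman's rho, the fourth being Dusp6 with Spry2 under the lymph node label. The adjustment runs over all 17 pairs of a label. Under the spleen label (20 libraries) Fos varied with Spry2 (Pearson's r = 0.734, permutation p = 0.00073, adjusted 0.0124; Spearman's rho = 0.749, permutation p = 0.00051, adjusted 0.00867). It also varied with Jun (r = 0.673, permutation p = 0.00252, adjusted 0.0214; rho = 0.68, permutation p = 0.00375, adjusted 0.0319). Adjusted over the 8 pairs of Fos without Dusp6, a choice made after seeing the data, the permutation p-values of r were 0.00584 with Spry2 and 0.0101 with Jun, and those with Dusp1 (r = 0.535) and Fosb (r = 0.538) moved from 0.0737 and 0.0699 to 0.0434 each. Leaving out the 2 libraries with the most extreme Fos values gave r of 0.675 with Spry2 and 0.546 with Jun. On each side of the second principal component r was 0.764 and 0.791 with Spry2 and 0.853 and 0.566 with Jun, over 9 and 11 libraries. Under the lymph node label (13 libraries) Fos varied with Ier2 (r = 0.889, permutation p = 0.00182, adjusted 0.0309; rho = 0.89, permutation p = 0.00195, adjusted 0.0331), with r = 0.838 without the 2 farthest libraries.

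No pair passed under both labels. Fos and Spry2 had r = -0.0483 and Fos and Jun 0.12 under the lymph node label, and Fos and Ier2 had -0.14 under the spleen label. The difference between labels was not tested. Dusp6 and Fos had r = -0.17 under the spleen label and 0.197 (permutation p = 0.519) in libraries labelled lymph node. Under the spleen label the highest r of Dusp6, again a description, was 0.597 with Ier2 (rho = 0.526) and the lowest -0.539 with Dusp1 (rho = -0.472). In libraries labelled lymph node its highest was 0.775 with Spry2 (permutation p = 0.00672, adjusted 0.0571; rho = 0.769, permutation p = 0.00506, adjusted 0.043), with r = 0.554 without the 2 farthest libraries.

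Among pairs outside that family, chosen after their values were seen and not tested, Junb and Ier2 had r of 0.807 (spleen label) and 0.911 (lymph node label). Egr1 and Nr4a1 had 0.703 and 0.0485 in the same order. The libraries of a point share depth, scaling and cell content, and r is over libraries, not cells. Junb carries a further limit, since its row (chromosome 8, 84972736 to 84978748) overlaps exons of Prdx2 on the opposite strand and strand use in the counting was not stated. The Prdx2 row itself had 2818 to 5045 normalised counts in libraries labelled spleen and 4656 to 7846 in those labelled lymph node. Jun overlaps an exon of the antisense gene Junos in the same way.

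**Figure D4:**
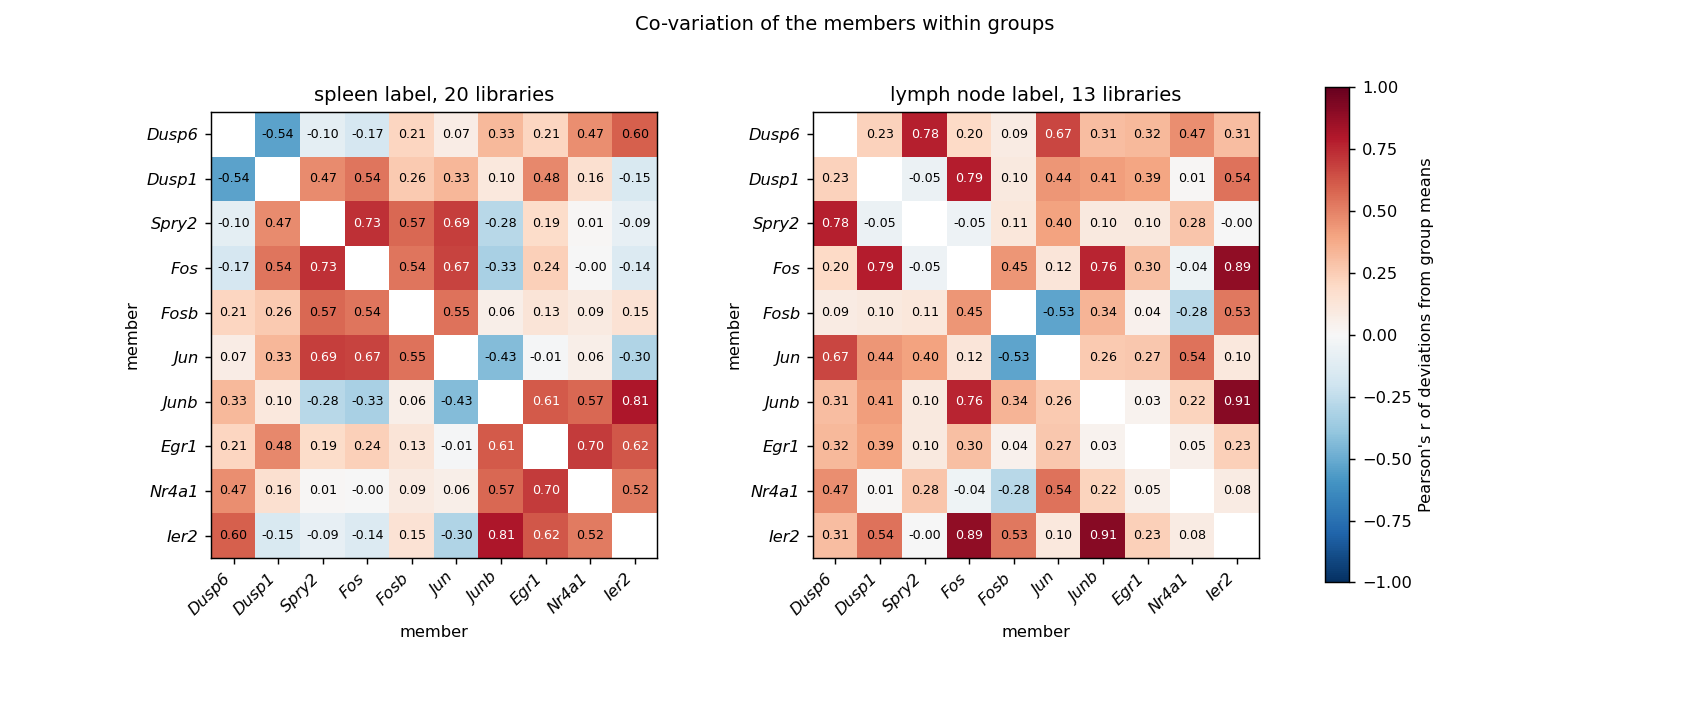
Pearson's r between the deviations of each pair of members from their group means, for 20 libraries labelled spleen and 13 labelled lymph node (colour scale from -1 to 1, values printed in the cells). Fos stands with Spry2 (0.73) and Jun (0.67) under the spleen label and with Ier2 (0.89) under the lymph node label, and Dusp6 with Fos is at -0.17 and 0.20.

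The rows most like a member were ranked by the smaller of the r values under the 2 labels, among 17147 rows. For Dusp6 they included Sfxn3 (0.764 by the spleen label, 0.718 by the lymph node label), Mtap (0.689 and 0.683), Smap2 in a row with Mir7015 (0.64 and 0.808) and Slc2a3, a glucose transporter gene (0.666 and 0.639). For Fos they were Dll1, a Notch ligand gene (0.691 and 0.701), Sdr42e1 (0.677 and 0.68), Tmem158 (0.658 and 0.729), Nrtn (0.639 and 0.664) and Fhdc1 (0.634 and 0.734). Among the members themselves Dusp1 was nearest to Fos (0.535 and 0.786), with 42 rows closer, and Nr4a1 nearest to Dusp6 (0.467 and 0.468), with 227 rows closer. These are descriptions over 20 and 13 libraries.

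Untreated levels differed between the labels for some members. Egr1 had a mean of 4089 normalised counts in untreated libraries labelled spleen and 1308 in those labelled lymph node, a ratio of 3.13 as deposited and 3.45 with 1 scaling over all 33 libraries, and the libraries did not overlap. Fosb (1.79 and 1.97), Junb (1.55 and 1.71), Ier2 (1.32 and 1.46) and Spry2 (1.23 and 1.36) were also higher without overlap. As deposited, such a separation in this direction held for 5 of 10 members and for 23.8% of the 17147 rows tested under both labels. Dusp6 (0.996 and 1.1) and Nr4a1 (0.968 and 1.07) overlapped and lay near 1 under both scalings. No test was made across the labels, which were scaled separately and whose names go against Glycam1 and Spic.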

How the data were processed

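RNA of lymph nodes and spleens was sequenced paired-end from polyA libraries by the authors. The deposited table holds a signal per gene, the read count normalised with DESeq2 size factors on mm10, and the submitters' processing notes name STAR 2.4.0. Dividing each library by its smallest step gave values at or close to whole reads for 100.0% of values above 0, which were then rounded. Size factors recomputed within a label had ratios of 0.9999 to 1.0001 (spleen) and 0.9621 to 0.9719 (lymph node). Per-library columns left unmapped numbered 0. Groups came from titles, and 0 of 56 replicate pairs were identical.

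Rows with a mean of at least 10 entered limma 3.58.1 (R 4.3.3) on a scale of log2(normalised count + 1), with an intensity trend and the 4 groups of a label in one fit, two-sided, with Benjamini-Hochberg adjustment over 18243 (spleen) or 18215 rows (lymph node) and a threshold of 0.05. This scale understates changes of low genes. Depth limits the precision of Fosb most. The unit is a normalised signal, so edgeR 4.0.16 and DESeq2 1.42.0 on recovered reads served as alternatives, beside the pseudocount, filter, scaling, 2 groups alone, weights per library, a block on replicate numbers, calls by an unadjusted p and a 1.5-fold change, and leaving out each library. Correlations used 100000 permutations within groups (scipy 1.17.1, numpy 2.4.6). The code was tested on simulated data.

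Members and gene lists were chosen with earlier results of these data known. All 10 members are named, with up to 3 genes per list and comparison of largest change among those past the threshold, and 5 rows most like Fos and Dusp6, of which 1 is not reported here.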

Additional observations from a re-analysis of the deposited data

Results flagged for a closer look

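A library far from the others of its group was looked for in 60 sets of 4 or 5 libraries (10 members in 6 groups), where chance gives about 1 in 20. The search found 2, which is no more than that rate gives over 60 sets. Jun, the AP-1 core subunit, had 1182 normalised counts in the 3 day library labelled lymph node, replicate 1, with the other 3 libraries at 1399 to 1436. Nr4a1, the orphan receptor, had 2136 in the 14 day replicate 4 of the same label, with the others at 1165 to 1328.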

How the results depend on the processing

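The 4 called changes (Egr1, Fosb and Nr4a1 at 1 day under the spleen label, Dusp1 at 1 day under the lymph node label) kept their direction in all alternatives run, while differences near 0, such as that of Ier2, crossed 0 in some. Members called at 1 day under the spleen label numbered 3, and 5 with quantile normalisation (Dusp1 and Junb added), 4 with the 2 groups alone and with library weights (Dusp1 added), 4 with DESeq2 (Junb added), 3 to 4 with a library left out and 2 by unadjusted p with a 1.5-fold change. At 3 days the 0 members became 1 with quantile normalisation, 2 with library weights (Egr1 and Junb), 1 with DESeq2, and 0 to 1 with a library left out (Egr1 without untreated replicate 2). At 1 day under the lymph node label the 1 member, Dusp1, became 0 without the filter (limma adjusted p 0.0535) and with the 2 groups alone (0.0572), 2 by unadjusted p with a 1.5-fold change (Fosb added), and 0 to 1 with a library left out. A group left with 1 library was assumed to vary like the others. At 3 days the 0 became 1 with library weights (Dusp6), 2 with DESeq2 (Dusp6 and Egr1) and 0 to 1 with a library left out (Dusp6 without replicate 4 at 3 days). At 14 days DESeq2 gave 1 (Dusp6). Pairs with r of at least 0.5 numbered 10, and 5 without centring on group means. The causes were not tested.

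Over all rows, counts called moved by over 1.5 times as follows. At 1 day under the spleen label 3030 became 1497 by unadjusted p with a 1.5-fold change. At 3 days 1013 became 572 without the filter, 140 with the 2 groups alone, 4722 with library weights, 1723 with DESeq2 and 620 by the 1.5-fold rule. Under the lymph node label 221 at 1 day became 139 without the filter, 544 with DESeq2, 894 by the 1.5-fold rule and 132 with the replicate block. At 3 days 226 became 557, 508 and 615 with library weights, DESeq2 and the 1.5-fold rule, and at 14 days 144 became 278, 382, 630 and, with the 2 groups alone, 55. Between treated groups 1 became at most 332 and 2 at most 278, by the 1.5-fold rule. With a library left out, all rows called numbered 2277 to 2887 at 1 day under the spleen label and, at 3 days, 158 (without replicate 3) to 2782 (without replicate 1). For the lymph node label they numbered 66 to 125, 85 to 302 and 31 to 159 at 1, 3 and 14 days.

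With the replicate number as a block (replicate block), members called numbered 3, 0 and 0 for the spleen label and 1, 0, 0 and 0 for the lymph node label, as without it. Same-numbered libraries of different groups correlated at -0.496 to 0.468 and at -0.107 to 0.0789, and 4 of 20 and 1 of 13 libraries were closest to their own number. These values show no clear pairing by number and cannot exclude one, and the labels do not state any. Depth limits Fosb, and the 2 libraries at 1 day limit every lymph node comparison with that group.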
